A study of Mus musculus with 12 samples.

Results

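The genes described here are 8 genes of iron handling, chosen by name from a table of 41709 genes: Trf, Tfrc, Slc11a2, Fth1, Ftl1, Slc40a1, Cp and Hmox1. Earlier results of the same data had called Trf, and the other 7 were added as genes of the same pathway, so the values of Trf are given as a description without a test. All 8 had counts, and 5 of them (Trf, Fth1, Ftl1, Cp and Slc11a2) passed the low-count filter, as did 6296 genes of the table. Leaflets of the aortic valve were cut out by laser from heart sections of C57BL/6J;129SvEv mice, 2 months old, and their RNA was sequenced. The 4 genotype groups, CTRL, ECKO, SMKO and DKO, had 3 libraries each. The labels give the group codes alone. In the study as it is known, the gene for the matrix protein fibulin-4 (Efemp2) is missing from the endothelium for ECKO, from smooth muscle for SMKO and from both for DKO. The promoters behind the deletions and the alleles of CTRL are not stated in the sources used here. The libraries are called biological triplicates and no animal is named, so p-values measure the spread between these libraries.

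Iron travels in plasma bound to transferrin (Trf), is taken up through the transferrin receptor (Tfrc), and leaves the endosome through the divalent metal transporter Slc11a2. Cells keep surplus iron inside a ferritin shell built from heavy (Fth1) and light (Ftl1) chains, release iron through ferroportin (Slc40a1) with the help of the ferroxidase ceruloplasmin (Cp), and recover it from heme through heme oxygenase (Hmox1). Much of the control acts on existing mRNA: iron regulatory proteins bind a stem-loop called the iron-responsive element, which blocks translation when it lies before the coding region and protects the mRNA when it lies after it. Sequencing measures the mRNA and not the protein made from it. The liver makes most plasma transferrin, and other tissues express the gene at lower levels.

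Iron-responsive elements found in the members are shown because they are sites through which iron is known to act on these mRNAs. They were found in GENCODE M21 transcripts (build GRCm38) by a search of the sense strand for CNNNNNCAGTGN followed by 5 bases that pair with the 5 N before the loop, with G-T pairs allowed. Each sequence has 30 bases, written 5′ to 3′ as DNA, and capitals mark the 6-base loop. The 5′ UTR of Fth1 (transcript Fth1-201, chromosome 19, plus strand, transcript positions 87 to 116), Ftl1 (Ftl1-201, chromosome 7, minus strand, 78 to 107) and Slc40a1 (Slc40a1-201, chromosome 1, minus strand, 90 to 119) held 1 match each. The 3′ UTR of Tfrc (Tfrc-201, chromosome 16, plus strand) held 4, at transcript positions 3315 to 3344, 3694 to 3723, 3759 to 3788 and 3806 to 3835.
Fth1: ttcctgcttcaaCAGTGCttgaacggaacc
Ftl1: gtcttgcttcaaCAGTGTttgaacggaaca
Slc40a1: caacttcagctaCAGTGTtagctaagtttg
Tfrc element 1: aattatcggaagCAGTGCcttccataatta
Tfrc element 2: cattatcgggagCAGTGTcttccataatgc
Tfrc element 3: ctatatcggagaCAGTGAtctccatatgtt
Tfrc element 4: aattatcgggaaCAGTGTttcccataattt
The elements of the ferritin chains were identical at 26 of 30 bases, and the Tfrc elements at 18 to 25 of 30 in pairs. The pattern occurred in 294 of 21901 protein-coding genes (1.34%), against 7 of 118 genes of the iron lists used below (5.93%), which were these 4 members, Alas2, Bola3 and Keap1. Genes known to carry the element were among those listed, so the higher share was set in part by the choice of genes. Whole transcripts were searched, and the region of the matches in Alas2, Bola3 and Keap1 was not read. No protein-coding transcript of Trf, Cp, Hmox1 or Slc11a2 held these letters in this arrangement. The search asked for an unbroken stem of 5 pairs and would miss an element whose stem departs from it. The lack of a match therefore does not show that a gene has no element, nor that Tfrc has no more than 4.

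Depth limited what could be read for the low members. Library totals ran from 74827 (SMKO 3) to 615665 counts (ECKO 2), so a floor of 3 counts stood between 4.37 and 41.4 CPM (counts relative to library size, with TMM, a factor for library composition). Mitochondrial genes took 10.5% to 28.5% of counts, with the highest shares in CTRL 3, SMKO 2 and SMKO 3, and SMKO 2 had the lowest TMM factor (0.739). Efemp2 counts were 9 to 58 for CTRL, 3 to 15 for ECKO, 0 to 4 for SMKO and 0 throughout DKO. Markers of valve interstitial cells summed to 21063 to 50582 CPM per library and those of endothelial cells to 722 to 1532, and all 8 markers of each list had counts in every group.

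By TPM, ferritin light chain was the most abundant member mRNA and transferrin receptor among the least. Per length, as TPM (counts relative to transcript length and library, as the authors scaled them), Ftl1 exceeded Fth1, Fth1 exceeded Trf, and Trf exceeded Cp in 12 of 12 libraries. The order of the ferritin chains depends on the lengths behind TPM. Fth1 counts exceeded Ftl1 counts in CTRL 1 (750 and 703), CTRL 2 (938 and 706) and ECKO 2 (787 and 632). The transcripts named above have 929 bases (Fth1-201) and 968 bases (Ftl1-201). Mean TPM in CTRL placed Ftl1 at rank 38, Fth1 at 63, Trf at 490 and Cp at 2897 among the 16588 genes with counts. Slc11a2, Hmox1, Slc40a1 and Tfrc stood below Cp in 11, 10, 12 and 12 of 12 libraries. Their order among themselves was not read, since each rested on 21 counts or fewer in any library.

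**Figure D1:**
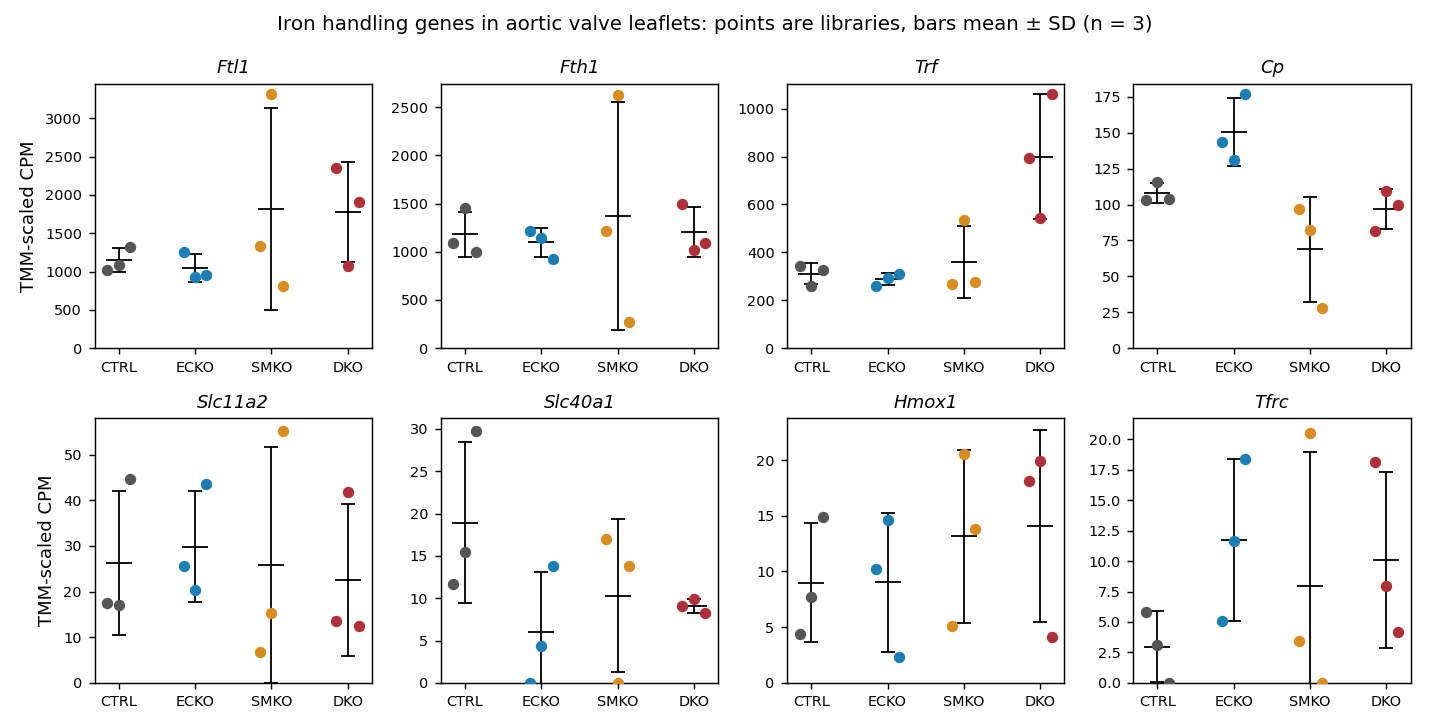
TMM-scaled levels (CPM) of the 8 members in each of the 12 libraries, by genotype group; each point is 1 library and each bar the group mean with its SD (n = 3), on a separate vertical scale for each gene, where error bars that would pass below 0 end at the axis. The 3 DKO libraries hold the highest Trf levels, 544 to 1062 CPM, with SMKO 2 at 534, while the Fth1 groups overlap.

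Transferrin, the plasma iron carrier, stood highest in valves with the double deletion. Trf had 235, 169 and 44 counts for CTRL 1, 2 and 3, 51, 202 and 135 for ECKO, 157, 104 and 20 for SMKO, and 175, 273 and 256 for DKO. Its scaled level was 342, 261 and 327 CPM for CTRL, 261, 295 and 309.9 for ECKO, 267, 534 and 276 for SMKO, and 795, 544 and 1062 for DKO. All 3 DKO libraries lay above the other 9, but the lowest of them, DKO 2, exceeded SMKO 2 by a small margin. On the TPM scale the lowest DKO library stood farther above the highest of the other 9. Trf stood at 399, 402 and 551 in DKO, against 280.2, 202 and 139 in CTRL, 138, 208 and 232 in ECKO and 187, 192 and 142 in SMKO. These TPM values averaged 451 ± 86.8 for DKO, 207 ± 71.0 for CTRL, 193 ± 48.8 for ECKO and 174 ± 27.3 for SMKO (SD, n = 3). The CPM values averaged 800 for DKO, 310 for CTRL, 289 for ECKO and 359 for SMKO. The rank of Trf by mean TPM was 204 in DKO and 454 to 503 in the other groups.

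The log2 fold change of Trf was 1.37 ± 0.29 in DKO against CTRL (SE), 1.46 ± 0.29 against ECKO and 1.14 ± 0.30 against SMKO. The value against SMKO was 1.56 when SMKO 2 was left out. The single deletions lay close to CTRL, at -0.09 ± 0.29 for ECKO and 0.23 ± 0.30 for SMKO. In the authors' deposited table the fold of Trf in DKO was 2.55 against CTRL, 2.73 against ECKO and 2.25 against SMKO. Trf shares exons with the gene Gm20425 on the same strand in the older annotation used here, so its counts are uncertain to that extent.

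Trf was 1 of 5 tested members past the threshold in DKO against CTRL, where edgeR called 0.492% of all 6296 genes, and 1 of 5 in DKO against ECKO, where it called 0.572%. That call chose the member and is no result. It was lost against CTRL in 5 fits, without CTRL 1, CTRL 2, CTRL 3, DKO 1 or DKO 3 (edgeR adjusted p up to 0.190), and against ECKO in 6, without ECKO 1, ECKO 2, ECKO 3, CTRL 1, DKO 1 or DKO 3 (up to 0.229). Groups without overlap, as for Trf in these pairs and in DKO against SMKO, were found for 17.8%, 18.9% and 9.55% of all tested genes against CTRL, ECKO and SMKO. A leaflet holds several cell types, and fewer cells of a type cannot be told apart from less RNA per cell in these libraries. Several types are known to express transferrin, so their markers were summed beside it. The hepatocyte list had at most 170 counts in CTRL 1 (60 of Ttr and 34 of Alb) and 26 in SMKO 1; Alb was at 0 in all 3 DKO libraries, where the list summed to at most 11.9 CPM. Without CTRL 1 the log2 fold change of Trf against CTRL was 1.45.

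Glial markers, of which 5 of 6 had counts, summed to 127 to 191 CPM in DKO and 96.6 to 121 in CTRL, without overlap. They reached 189 CPM in ECKO and 141 in SMKO. The sum was mostly S100b (17, 43 and 33 counts in DKO 1, 2 and 3) and Cnp (6, 19 and 8), while Sox10 had 1, 4 and 3 counts in DKO. Smooth muscle markers summed to 290 to 335 CPM in DKO and 215 to 266 in CTRL, also without overlap. They ran from 256 to 296 CPM in ECKO and from 138 to 230 in SMKO. Acta2 had the highest mean of this list in every group, at 168 CPM for CTRL and 214 for DKO. The part of glial and smooth muscle markers in the Trf values was not tested. Macrophage markers, 13 of 13 with counts, summed to 924 to 2261 CPM for DKO, 1010 to 1367 for CTRL, 962 to 1761 for ECKO and 1021 to 4175 for SMKO. The highest sum was in SMKO 2, the library with the highest Trf outside DKO, while DKO 2 had the lowest sum of all 12 with Trf at 544 CPM. Lyz2 had the highest mean of the list in every group, at 358 CPM for CTRL and 732 for DKO, and reached 2871 in SMKO. Other markers went both ways between DKO and CTRL, as with C1qa (119 and 66.7) and Mrc1 (31.1 and 55.8). The sum is therefore no plain measure of macrophage content. Across the 12 libraries log2 Trf followed the macrophage sum at r = 0.418 (0.655 within groups), the glial sum at 0.455 (0.0913), the melanocyte sum at 0.49 (0.328), the valve interstitial sum at 0.483 (0.512) and the endothelial sum at -0.572 (-0.283). With the smooth muscle sum r was 0.315 (-0.163), and with the TMM factor of the libraries it was -0.438 (-0.579). All these r values share the scaling of each library and are given as a description. Endothelial markers went both ways between DKO and CTRL, as with Pecam1 (344 and 237 CPM) and Kdr (15.3 and 44.5). So did valve interstitial markers, as with Col1a1 (3886 and 1588) and Dcn (12694 and 17153). The sums of these lists are therefore no plain measures of cell content either.

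Which other genes followed Trf across the libraries was asked among 6210 tested genes. The genes named are the extremes of these correlations over 12 libraries. Trf had been chosen for its call, so genes that differ in DKO are favoured, and all levels share the scaling of each library. The values are a description. Among the 5 closest were the procollagen enhancer Pcolce (r = 0.919 over 12 libraries, 0.831 within groups), the matrix protease Mmp2 (0.918, 0.872), the glycolytic enzyme Eno1 (0.908, 0.786) and Mall (0.891, 0.652). Mmp2 stood at 1152 ± 88.8 CPM for CTRL, 1275 ± 161 for ECKO, 1499 ± 448 for SMKO and 2062 ± 445 for DKO (SD, n = 3). The 3 most opposite were the VEGF receptor Kdr (-0.952, -0.885), the IGF-binding protein Igfbp5 (-0.937, -0.907) and Myoc (-0.932, -0.794). Igfbp5 stood at 1195 ± 59.1 CPM in CTRL and 128 ± 70.0 in DKO. None of these named genes is an iron gene of the lists. Among the members, Ftl1 had r = 0.671 with Trf (0.759 within groups), Fth1 0.294 (0.477), Cp -0.0733 (0.176) and Slc11a2 -0.28 (-0.289).

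**Figure D2:**
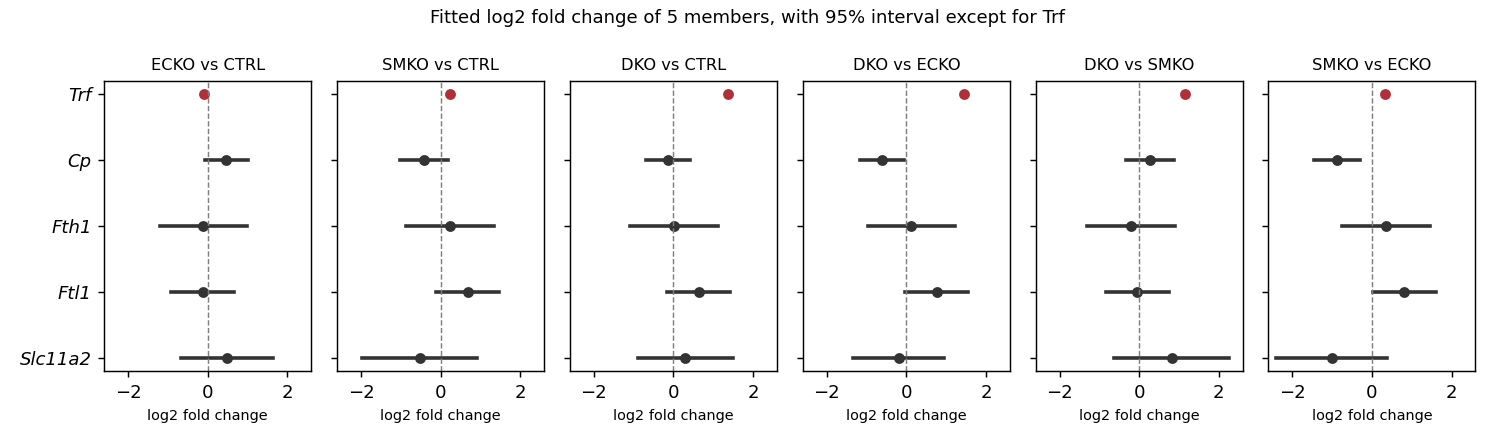
Log2 fold changes of the 5 tested members in each comparison, with points for edgeR's estimates and bars for 95% intervals; Trf, in red, is a description and has no interval. Intervals of Fth1 and Slc11a2 include 0 in every comparison, that of Cp lies below 0 in DKO and in SMKO against ECKO, and that of Ftl1 lies above 0 in SMKO against ECKO.

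Of the 4 tested members other than Trf, none passed edgeR's test (adjusted p under 0.05 over all genes) in any of the 6 pairs of groups, in the interaction or in the test over the 4 groups, and DESeq2 called none either. At an unadjusted p under 0.05, edgeR gave 1 member in DKO against ECKO (Cp), 2 in SMKO against ECKO (Cp and Ftl1), 1 over the 4 groups (Cp) and 0 in the other 5 tests. DESeq2 gave 2 in SMKO against ECKO and 0 elsewhere. Of all tested genes, edgeR gave 10.8%, 3.8% and 8.99% at this p in those 3 tests, and DESeq2 2.42% in SMKO against ECKO. Among all genes edgeR called 0% in ECKO against CTRL, in SMKO against CTRL, in DKO against SMKO and in SMKO against ECKO, 0.0318% in the interaction and 0.302% over the 4 groups.

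The receptor and the importer of transferrin iron were scarce. Slc11a2 had 12, 11 and 6 counts for CTRL 1, 2 and 3, 5, 14 and 19 for ECKO, 4, 3 and 4 for SMKO, and 3, 21 and 3 for DKO. Its levels were 26.4 ± 15.8 CPM for CTRL, 29.9 ± 12.2 for ECKO, 25.8 ± 25.8 for SMKO and 22.6 ± 16.6 for DKO (SD, n = 3), and every pair of groups overlapped. The log2 fold change farthest from 0 was -1.01 ± 0.68 in SMKO against ECKO (edgeR adjusted p = 0.99959; 95% interval -2.40 to 0.38), and it was -0.10 without SMKO 1. In DKO the level rested on 1 library: DKO 2 held 21 of the 27 counts, and the fold against CTRL went from 0.29 ± 0.58 to -0.71 without it. Slc11a2 overlaps an exon of Gm5475 on the opposite strand.

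Tfrc had 4, 2 and 0 counts for CTRL, 1, 8 and 8 for ECKO, 2, 4 and 0 for SMKO, and 4, 4 and 1 for DKO, below the filter for the test. Pooled, 17 counts in ECKO against 6 in CTRL gave a ratio of 3.16 (exact 95% interval 1.19 to 9.79, counting error only). The ECKO libraries did not stand apart: ECKO 1, at 5.12 CPM, lay below CTRL 1 at 5.83 CPM. In edgeR's test without the filter the log2 fold change was 1.57 ± 0.82 (adjusted p = 0.895). DKO held 9 counts, 2.28 times CTRL (0.726 to 7.80), and the authors' deposited table gives a fold of 2.17 with a p of 0.199. A difference in the receptor between DKO and CTRL was not detectable at this depth.

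The ferritin chains were the abundant members, and their levels varied more among SMKO libraries than between groups. Heavy chain Fth1, which carries the ferroxidase activity of the shell, had 750, 938 and 135 counts for CTRL, 238, 787 and 404 for ECKO, 714, 511 and 20 for SMKO, and 330, 513 and 262 for DKO. Its level was 1182 ± 236 CPM for CTRL, 1098 ± 152 for ECKO and 1202 ± 259 for DKO (SD, n = 3). In SMKO it ran from 276 CPM in SMKO 3 to 2624 in SMKO 2, the lowest and the highest of all 12 libraries. The log2 fold change in DKO against CTRL was 0.02 ± 0.51 (95% interval -1.08 to 1.12; edgeR adjusted p = 0.996).

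Light chain Ftl1, which helps the iron core to form, had 703, 706 and 178 counts for CTRL, 246, 632 and 418 for ECKO, 780, 645 and 59 for SMKO, and 519, 541 and 459 for DKO. The levels were 1146 ± 156 CPM for CTRL, 1047 ± 185 for ECKO, 1818 ± 1319 for SMKO and 1779 ± 648 for DKO (SD, n = 3). DKO 1 and DKO 3, at 2356 and 1903 CPM, lay above all 6 CTRL and ECKO libraries, while DKO 2, at 1077, lay within the CTRL range. In SMKO the range again went from SMKO 3 (814 CPM) to SMKO 2 (3312). The log2 fold change was 0.64 ± 0.38 in DKO against CTRL (95% interval -0.15 to 1.43; edgeR adjusted p = 0.552) and 0.76 ± 0.38 against ECKO (-0.03 to 1.56; 0.487). SMKO lay 0.68 ± 0.39 from CTRL (edgeR adjusted p = 0.886) and -0.09 without SMKO 2. It lay 0.81 ± 0.39 from ECKO (95% interval 0.014 to 1.60; edgeR adjusted p = 0.99959) and 0.048 without SMKO 2. The copy Ftl1-ps1, whose element is identical to that of Ftl1 at 30 of 30 bases, had 8 to 39 counts, or 1.92% to 13.6% of those of Ftl1, so some reads may have been split between them.

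Whether the balance of the chains differed was asked with the ratio of Fth1 to Ftl1 counts, which needs no scaling between libraries. The ratio was 1.07, 1.33 and 0.758 for CTRL 1, 2 and 3, 0.967, 1.25 and 0.967 for ECKO, 0.915, 0.792 and 0.339 for SMKO, and 0.636, 0.948 and 0.571 for DKO. Means were 1.05 ± 0.285, 1.06 ± 0.161, 0.682 ± 0.304 and 0.718 ± 0.202 (SD, n = 3). DKO 2, SMKO 1 and SMKO 2 lay above CTRL 3, so both groups overlapped CTRL. All 3 DKO and all 3 SMKO ratios lay below the 3 of ECKO, a separation that was seen in the values and not tested. The log2 difference from CTRL was -0.55 for DKO (exact two-sided permutation p = 0.2, adjusted over 3 comparisons 0.45), -0.71 for SMKO (exact permutation p = 0.3, adjusted 0.45) and 0.04 for ECKO (exact permutation p = 1, adjusted 1). The smallest p that 3 libraries against 3 allow is 0.1.

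**Figure D3:**
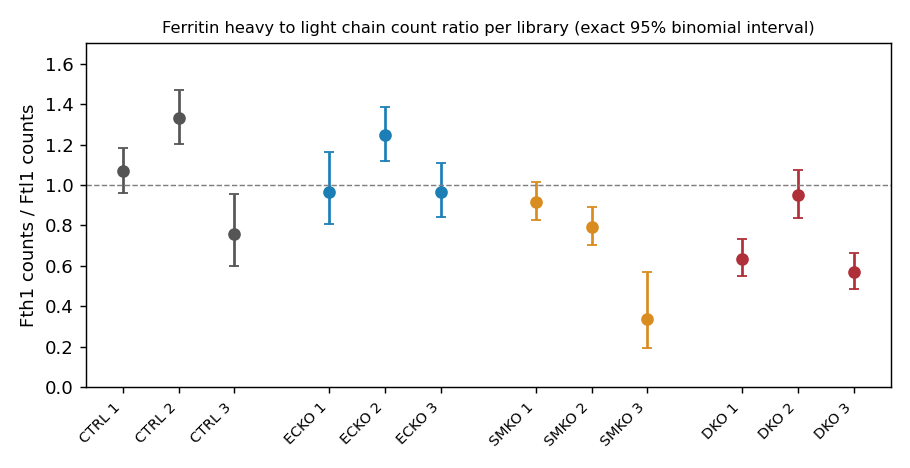
Ratio of Fth1 to Ftl1 counts in each library by genotype group, on a linear axis from 0; points are libraries, bars their exact 95% binomial intervals (counting error only), and the dashed line marks equal counts. DKO spans 0.571 to 0.948 and CTRL 0.758 to 1.33, so the groups overlap.

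Ceruloplasmin, the ferroxidase that loads iron onto transferrin, was highest in ECKO, without passing the test. Cp stood at 143, 131 and 177 CPM in ECKO 1, 2 and 3 (28, 90 and 77 counts), against 103, 116 and 104 in CTRL (71, 75 and 14 counts). It stood at 97.0, 82.2 and 27.6 CPM in SMKO (57, 16 and 2 counts) and at 81.7, 109.5 and 99.5 in DKO (18, 55 and 24 counts). All 3 ECKO libraries lay above the other 9, and the 3 SMKO libraries below those of CTRL, where SMKO 3 rested on 2 counts. Groups without overlap were found for 11.8% of all tested genes in ECKO against CTRL, 18.9% in DKO against ECKO, 9.28% in SMKO against ECKO and 10.5% in SMKO against CTRL.

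The log2 fold change of Cp was 0.47 ± 0.26 in ECKO against CTRL (95% interval -0.06 to 1.00; edgeR adjusted p = 0.998). It was -0.61 ± 0.27 in DKO against ECKO (-1.16 to -0.06; edgeR adjusted p = 0.405) and -0.88 ± 0.29 in SMKO against ECKO (-1.47 to -0.30; edgeR adjusted p = 0.99959). DKO lay -0.14 ± 0.28 from CTRL (-0.70 to 0.42; edgeR adjusted p = 0.913). The authors' deposited table gives a fold of -1.47 for DKO against ECKO with a p of 0.0522. Cp overlaps exons of Hps3 on the opposite strand, and the library kit does not mark strand.

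The exporter Slc40a1 had 8, 10 and 4 counts for CTRL, 0, 3 and 6 for ECKO, 10, 0 and 1 for SMKO, and 2, 5 and 2 for DKO, below the filter. The DKO libraries, at 8.29 to 9.96 CPM, lay below those of CTRL, at 11.7 to 29.7 CPM, a separation found for 17.8% of tested genes in this pair. Pooled, DKO held 0.623 of the CTRL level (exact 95% interval 0.253 to 1.41, counting error only), and edgeR's test without the filter gave -0.77 ± 0.71 (adjusted p = 0.853). The CTRL library with the highest level had 4 counts, so the separation rests on few counts.

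Heme oxygenase, which frees iron from heme and is induced by oxidative stress, had 3, 5 and 2 counts of Hmox1 for CTRL, 2, 10 and 1 for ECKO, 3, 4 and 1 for SMKO, and 4, 10 and 1 for DKO. DKO 1 and DKO 2, at 18.2 and 19.9 CPM, lay above the 3 CTRL libraries (4.37 to 14.9), while DKO 3, at 4.15, lay below them. The pooled ratio of DKO to CTRL was 2.28 (exact 95% interval 0.960 to 5.69), the log2 fold change without the filter was 1.02 ± 0.74 (edgeR adjusted p = 0.853), and the authors' deposited table gives a fold of 2.16 with a p of 0.121. Red cell markers summed to 99.6 to 427 CPM in DKO and 202 to 3425 in CTRL, with Slc4a1 at 0 in every library, so the libraries held different amounts of globin RNA. Its part in the Hmox1 values was not tested.

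The wider pathway was described with 8 lists holding 121 genes, of which 120 were in the table and 76 passed the filter. Trf was the 1 gene past the threshold when DKO was set against CTRL or ECKO, and no listed gene passed edgeR's test in the other 4 pairs or the interaction. At an unadjusted p under 0.05, 7 of the 76 genes were found in DKO against CTRL, against 11.6% of all tested genes, and 9 in DKO against ECKO, against 10.8%. There were 5 in ECKO against CTRL (4.34% of all genes), 1 in SMKO against CTRL (5.48%), 6 in DKO against SMKO (6.29%) and 7 in SMKO against ECKO (3.8%). The counts for DKO against CTRL, ECKO and SMKO include Trf, which was chosen for its call. The median log2 fold change of the 76 in DKO against CTRL was -0.06, and 0.02 over all tested genes.

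**Figure D4:**
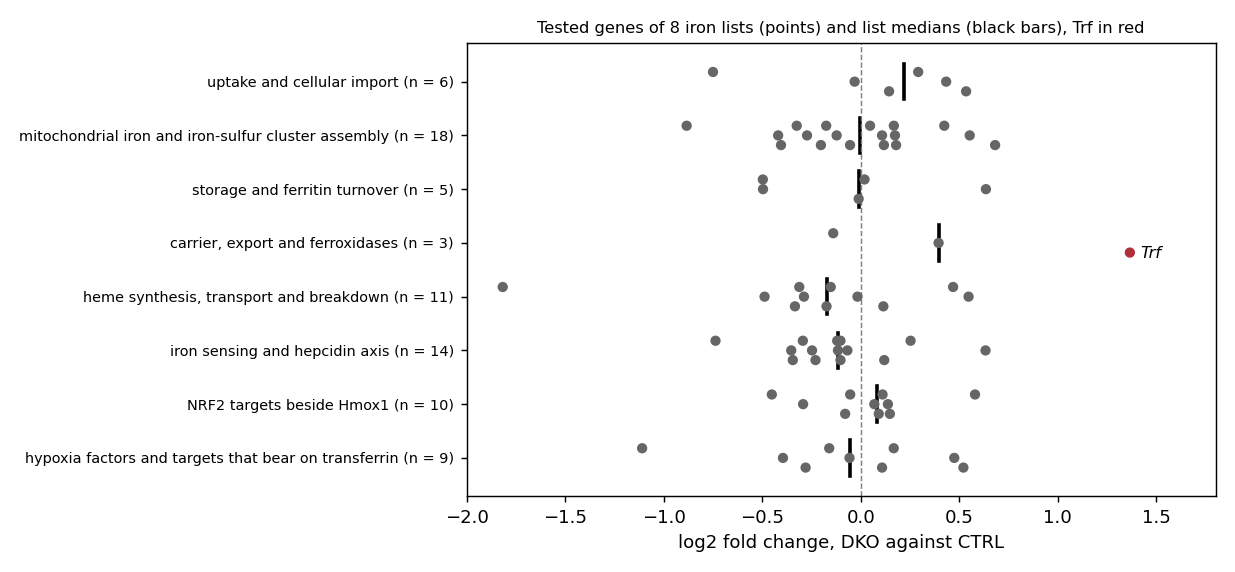
Log2 fold changes of the 76 tested genes of 8 iron lists in DKO against CTRL, each point a gene and each black bar the median of a list, with Trf in red. List medians run from -0.17 (heme) to 0.40 (carrier, export and ferroxidases, 3 genes), and Trf stands at 1.37. The carrier list holds Trf, chosen for its call, beside App (0.40) and Cp (-0.14), so its median rests in part on that choice. The next highest median is 0.22, for uptake and cellular import.

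Uptake and cellular import had 6 of 18 genes tested, with a median of 0.22 in DKO against CTRL. Hfe, which modulates the transferrin receptor, stood at 52.1 ± 3.71 CPM for DKO, 95.1 ± 33.6 for CTRL, 113 ± 30.9 for ECKO and 76.4 ± 34.5 for SMKO (SD, n = 3; edgeR adjusted p over the 4 groups = 0.471). DKO lay below all 6 CTRL and ECKO libraries for Hfe, whose lowest values there were 72.9 and 91.9 CPM, a separation found for 17.8% of tested genes against CTRL and 18.9% against ECKO. Slc39a14, an importer of iron not bound to transferrin, stood at 27.7 ± 11.4 CPM in CTRL and 36.3 ± 4.12 in DKO (edgeR adjusted p = 0.878). Storage and ferritin turnover had 5 of 6 genes tested, with a median of -0.01. Ncoa4, the receptor that delivers ferritin for breakdown, ran from 105 to 127 CPM in CTRL and from 49.9 to 104 in DKO (0.777), and Pcbp2, an iron chaperone, at 363 ± 18.1 and 258 ± 12.6 (0.790).

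Carrier, export and ferroxidase genes had 3 of 6 tested, namely Trf, Cp and App. App, whose protein has been linked to ferroportin at the cell surface, stood at 1169 ± 106 CPM in CTRL and 1539 ± 215 in DKO (SD, n = 3; edgeR adjusted p over the 4 groups = 0.886). Heme synthesis, transport and breakdown had 11 of 22 tested with a median of -0.17. Abcg2, a porphyrin exporter also found in endothelial cells, stood at 29.4 ± 13.4 CPM in CTRL and 5.50 ± 6.03 in DKO, on 35 and 7 pooled counts (0.653). Alas1, the first enzyme of heme synthesis, stood at 17.9 ± 3.59 for CTRL, 34.1 ± 6.13 for ECKO and 27.1 ± 7.89 for DKO (0.671).

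Mitochondrial iron and iron-sulfur cluster assembly had 18 of 24 genes tested. Of these, 9 were fitted higher in DKO against CTRL, and 5 in SMKO against CTRL, where the median was -0.34. Isca2, which helps to build clusters, stood at 38.9 ± 17.4 CPM in SMKO and 65.2 ± 14.3 in CTRL (SD, n = 3; edgeR adjusted p over the 4 groups = 0.726). Fdx2, the ferredoxin of cluster assembly, had 5 pooled counts in SMKO, all in SMKO 1, and 22 in CTRL (0.734).

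Iron sensing and the hepcidin axis had 14 of 19 genes tested, with a median of -0.12 in DKO and -0.34 in SMKO against CTRL. Smad6, an inhibitor of BMP signalling, stood at 136 ± 41.6 CPM for CTRL, 141 ± 58.2 for ECKO, 75.8 ± 30.1 for SMKO and 85.6 ± 15.1 for DKO (SD, n = 3; edgeR adjusted p over the 4 groups = 0.468). The 3 DKO and the 3 SMKO libraries all lay below the 3 CTRL libraries, which began at 106 CPM. Groups without overlap with CTRL were found for 17.8% of tested genes in DKO and 10.5% in SMKO. Bmpr1a, a BMP receptor, stood at 202 ± 41.4 for CTRL, 226 ± 5.31 for ECKO, 129.9 ± 57.0 for SMKO and 172 ± 22.1 for DKO (0.694).

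The list around NRF2, the oxidative stress factor that also drives Hmox1, had 10 of 15 genes tested. Beside targets, the tested genes held Nfe2l2, the gene of NRF2 itself, and Keap1 and Bach1, which act against NRF2. The counts and medians of the list are therefore not those of targets alone. It had the lowest median of the 8 lists in ECKO against CTRL, -0.32, with 1 of 10 fitted higher. Gclm, a subunit of the enzyme that starts glutathione synthesis, stood at 36.2 ± 5.31 CPM in ECKO and 65.3 ± 7.84 in CTRL, without overlap, as for 11.8% of tested genes (SD, n = 3; edgeR adjusted p over the 4 groups = 0.543). Me1, a source of NADPH, stood at 85.6 ± 3.16 in ECKO and 119.9 ± 21.5 in CTRL (0.474). In DKO the same list had a median of 0.08 against CTRL and 0.47 against ECKO.

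Hypoxia factors and their targets, which bear on transferrin because its gene is a known target of hypoxia-inducible factors, had 9 of 11 genes tested, with a median of -0.06 in DKO against CTRL. Hif1a stood at 166 ± 24.5 CPM in CTRL and 184 ± 29.8 in DKO (SD, n = 3; edgeR adjusted p over the 4 groups = 0.711). Vegfa, the target with the smallest p of this list, stood at 134 ± 41.7 CPM for CTRL, 135 ± 8.04 for ECKO, 119 ± 126 for SMKO and 58.0 ± 15.7 for DKO (0.666). Of the 9 genes 4 were fitted higher in DKO against CTRL and 5 lower. Vegfa passed over the 4 groups without a low-count filter (edgeR adjusted p = 0.0318) and without SMKO 3 (0.0467).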

How the data were processed

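The authors deposited 1 table of 41709 genes with whole-number total counts and TPM for each of the 12 libraries, per the file headers, together with a fold change and a p-value for DKO against each other group, whose test the sources used here do not give. TPM was scaled by the authors within each library. The genome build was GRCm39, per the submitters' processing notes. The sources used here do not give the aligner, counting program or use of strand. Library preparation used the Nextera XT kit, per the labels' protocols.

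The deposited counts were filtered with filterByExpr (a minimum of 10 counts, adjusted for depth, in 3 or more libraries), scaled by TMM and tested with edgeR 4.0.16 (R 4.3.3, limma 3.58.1), by the quasi-likelihood F test with robust spread, in 1 model of 12 libraries with 8 residual degrees of freedom. P-values were adjusted by Benjamini-Hochberg over 6296 genes, with a threshold of 0.05. Standard errors were taken from the fold change and F. TPM served for levels between genes and, for Trf, as a second description of its level by group; no test used it. Correlations are Pearson's r of log2 CPM with a prior count of 2. Pooled ratios have exact binomial 95% intervals, and these and the floor of 3 counts cover counting error only. The code was tested on simulated counts. Libraries of a group differed by more than sampling noise (chi-square per degree of freedom 1.85 to 9.64), so none were counted as 1 sample; counts were summed within a group for the pooled ratios alone.

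The members and lists were chosen with earlier results of these data known. All 8 members are reported; for each list, the 2 tested non-members with the smallest p over the 4 groups are named (1 for the carrier list); for likeness to Trf, the 5 highest and 3 lowest correlations, without predicted genes. Of the genes these rules select, 1 is not reported here. The 19 alternatives were DESeq2 1.42.0, RLE size factors, no low-count filter, library sizes without mitochondrial genes and Gm10800, a replicate block, log10 depth as a covariate, a term for libraries with over 10 Y-linked counts, and leaving out each of 12 libraries. Stem-loops were searched in GENCODE M21 transcripts of GRCm38, an older build than that of the counts, so no genome positions are given.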

Additional observations from a re-analysis of the deposited data

How the results depend on the processing

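No tested member other than Trf passed in any of the 19 alternatives. Their 24 pairwise fold changes kept their direction in 433 of 456 fits, and the smallest adjusted p was 0.162. The log2 fold change of Trf ran from 1.11 to 1.58 against CTRL, 1.21 to 1.68 against ECKO and 0.90 to 1.56 against SMKO in DKO. Over the fits that leave out 1 library, Fth1 ran from -0.21 to 0.065 in ECKO, -0.59 to 0.68 in SMKO and -0.18 to 0.19 in DKO against CTRL, -0.055 to 0.23 in DKO and -0.48 to 0.80 in SMKO against ECKO, and -0.68 to 0.59 in DKO against SMKO. Ftl1 ran from -0.085 to 1.01 in SMKO against CTRL and -0.39 to 0.71 in DKO against SMKO, and from 0.048 to 1.14 in SMKO against ECKO. Slc11a2 ran from -1.15 to 0.38 in SMKO and -0.71 to 0.58 in DKO against CTRL, -1.18 to 0.18 in DKO against ECKO, -0.21 to 1.44 in DKO against SMKO and -1.64 to -0.10 in SMKO against ECKO. The Fth1 to Ftl1 ratio ran from -0.18 to 0.23 in ECKO (log2 difference from CTRL, -0.18 without CTRL 3 and -0.08 without ECKO 2), -0.98 to -0.27 in SMKO and -0.77 to -0.36 in DKO. With library sizes that leave out mitochondrial genes and Gm10800, Fth1 in DKO against CTRL was -0.011. The causes were not tested; Fth1 and Ftl1 moved most in comparisons with SMKO, without SMKO 2 or SMKO 3. With the replicate number as a block, Fth1 and Ftl1 in DKO against SMKO turned to 0.034 and 0.019, and the ratio in DKO had an exact sign-flip permutation p of 0.25; no call changed. The numbers share no stated origin, and same-numbered libraries deviated together at r = -0.14 to 0.18, with 5 of 18 pairs over 0.1, so they were not taken as pairs. Depth limits Tfrc, Slc40a1 and Hmox1, with 38, 51 and 46 counts over all libraries.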
